A study of Danio rerio with 12 samples.

Results

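The genes described here are the Rab GTPases and the endosomal sorting genes of zebrafish neutrophils. They are 156 single-gene entries of the count table, chosen by symbol. Symbols that begin with vps, snx or chmp and a number were taken. Rab symbols were taken where only letters, or nothing, follow the number, so rab11fip4b is outside the set. Plekhf1 and stxbp5a were added by name. The table holds 31263 zebrafish and EGFP entries, of which 8453 had enough counts to be tested, and these include 102 of the 156 genes. Of the 54 genes that were not tested, 13 had no counts in any library.

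Rab GTPases are small membrane switches. In its GTP form each Rab recruits effectors to a particular compartment, which gives the endoplasmic reticulum, the Golgi, early, recycling and late endosomes, lysosomes and secretory granules their identity. ESCRT complexes, whose subunits carry vps and chmp names, sort ubiquitinated cargo into vesicles inside the endosome and seal membranes from within. Retromer and the sorting nexins return cargo to the cell surface or the Golgi, and the HOPS, CORVET, GARP and EARP tethers hold membranes together before fusion. In neutrophils these pathways serve phagosome maturation, receptor recycling and the release of granules. Some names caught by the pattern belong elsewhere: rab3ip encodes an exchange factor for Rab8, rab5if encodes a Rab5-interacting factor, vps72a encodes a chromatin protein, and vps26c and vps35l encode subunits of the related retriever complex.

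The cells were GFP-positive cells sorted from the trunks of larvae with the mpx:GFP transgene, in which the promoter of neutrophil myeloperoxidase drives GFP. The spinal cord was cut at 3 days post-fertilization, and age-matched larvae without a cut were the uninjured controls. The 4 groups, with 3 biological replicates each, were uninjured and injured larvae with DMSO and uninjured and injured larvae with AMD3100, and values for all 4 groups are given in that order. AMD3100 blocks the chemokine receptor Cxcr4 and was given at 25 uM with 0.1% DMSO between 4 and 8 hours after injury. The labels give 8 hours after injury for all injured samples, so each injury contrast covers this time point only. The DMSO concentration of the DMSO groups was not found in the labels. Each library came from 2500 to 4800 sorted cells, and nothing states whether the cells of 1 library came from 1 clutch.

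The libraries held 655451 to 12173133 counts, of which 3273 to 66268 fell on the 156 genes. Injured AMD3100 replicate 1 was the shallowest, and its EGFP level, 397 CPM (counts divided by the library total) before TMM scaling, stood below the 1326 to 1935 CPM of the other libraries. All 12 neutrophil markers were detected in every group, with summed levels of 41928 to 54561 CPM in uninjured DMSO, 23129 to 31505 CPM in injured DMSO, 46891 to 62365 CPM without and 22508 to 36146 CPM with injury in AMD3100. Counts of 16 of the 18 entries for skeletal muscle markers, all but myhz1.1 and pvalb2, summed to 1707 to 22464, 770 to 9227, 12773 to 47215 and 1289 to 12741 CPM in the same order of groups. Of 15 macrophage markers, 7 to 11 had counts in a group and summed to 857 to 1080, 611 to 827, 1051 to 1304 and 534 to 1025 CPM, with grn1, grn2, ctss2.2 and mfap4 at 0 in all groups. The 7 thrombocyte markers, which include the fibronectin gene fn1b, summed to 268 to 330, 586 to 1132, 211 to 238 and 476 to 710 CPM, with mpl at 0 in injured AMD3100. The part of these other cells in the results below was not tested.

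In neutrophils of uninjured DMSO larvae, a few Rab and ESCRT genes made up most of the signal. Levels are CPM scaled by TMM factors, and because the library method counts transcript ends, they were not divided by transcript length. The highest mean was that of rab5aa, a Rab of early endosome fusion, at 770 ± 492 CPM (SD, n = 3), with libraries at 793, 267 and 1250 CPM. It was followed by rab2a and rab1ab, which act between the endoplasmic reticulum and the Golgi, at 558 ± 93.0 and 408 ± 61.7 CPM (SD, n = 3). Next came rab10, a Rab of delivery to the cell surface, at 351 ± 44 CPM and vps4b, the ATPase that takes ESCRT-III filaments apart, at 307 ± 53.2 CPM (SD, n = 3). These 5 genes held 47.8% of the summed level of all 156 and the top 10 held 61.7%. The spread of rab5aa over its 3 libraries spanned the means of rab2a, rab1ab, rab10 and vps4b, so its rank is not resolved.

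**Figure D1:**
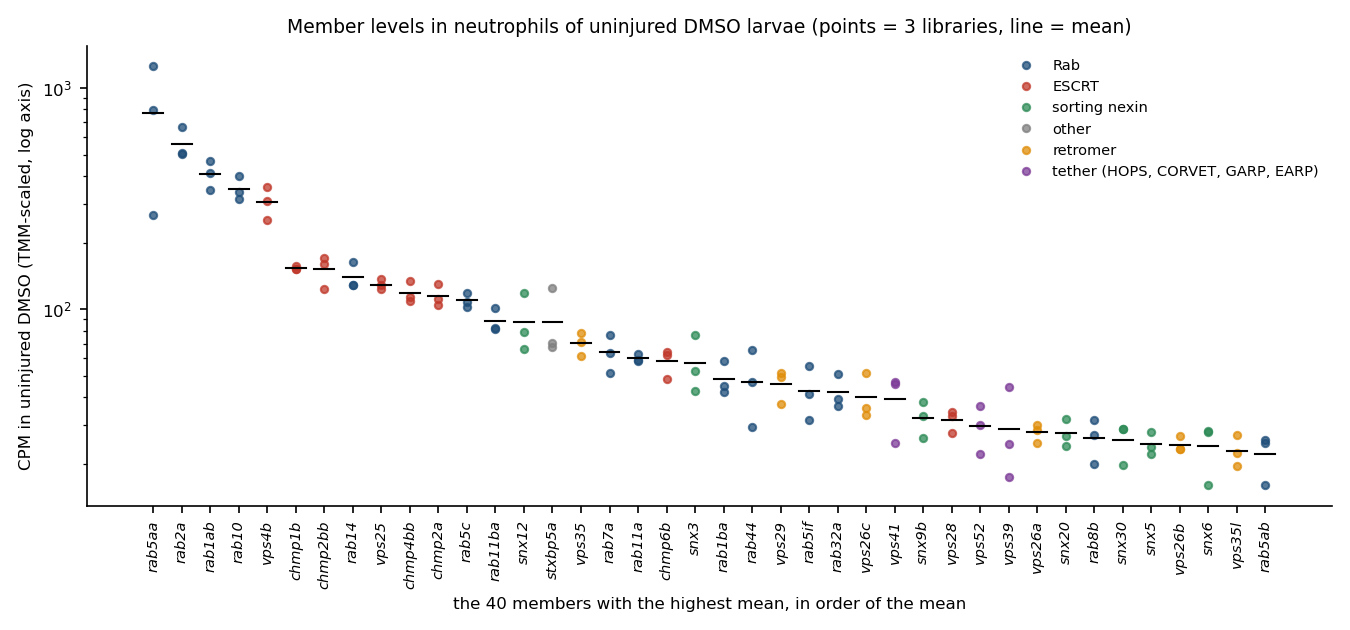
Level of the 40 highest genes of the set in uninjured DMSO neutrophils, in CPM on a log axis, with 1 point per library (3 libraries), a line at the mean and colours for the class of gene. The rab5aa points run from 267 to 1250 CPM, while those of chmp1b run from 152 to 156 CPM.

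Below this group the levels fell steadily. The ESCRT-III genes chmp1b (153 ± 2.55 CPM) and chmp2bb (152 ± 24.4 CPM), the Golgi-endosome Rab rab14 (140 ± 20.7 CPM), the ESCRT-II gene vps25 (129 ± 6.78 CPM) and the filament-forming chmp4bb (119 ± 13.3 CPM) completed the top 10. A mean of at least 50 CPM was reached by 20 genes, at least 10 CPM by 58 and at least 1 CPM by 100. The zebrafish genome carries duplicated copies of many of these genes. Entries were grouped by the name and number in the symbol, and 40 such name families had at least 2 entries. A name family can hold separate genes as well as duplicates, as where rab3ip falls with the rab3 genes. In 20 of these families 1 entry held at least 90% of the summed level averaged over all 12 libraries. Examples are chmp1b (99.3% of the chmp1 pair), chmp4bb (98.7% of the chmp4 genes) and rab7a (90.8% of the rab7 pair). The 20 also include the rab27, rab39 and snx8 families, which had few counts and no tested entry. On the same average, rab11ba held 49.3% of the level of the rab11 genes. Copies that are close in sequence can share reads, and the labels do not say how such reads were assigned, so the split between copies is uncertain. Rab27a, a Rab of neutrophil granule release in mammals, had 77 counts over 10 libraries and was not tested.

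The set took a larger share of all counts in injured larvae. It made up 0.435 ± 0.0549% of counts in uninjured DMSO and 0.66 ± 0.0421% in injured DMSO, and in AMD3100 the shares were 0.399 ± 0.019% without and 0.544 ± 0.0801% with injury (SD, n = 3 each). Every injured library lay above every uninjured library of the same treatment. Mitochondrially encoded transcripts took 29.9% to 32.1%, 19.1% to 26.9%, 17.9% to 21.4% and 14.2% to 27.8% of counts in the 4 groups, so the same shares were also taken without them. They were then 0.632 ± 0.0713%, 0.855 ± 0.0569%, 0.495 ± 0.0155% and 0.674 ± 0.0743% (SD, n = 3). TMM factors, left out of these shares, were 0.806 to 0.95, 1.07 to 1.12, 0.913 to 1.01 and 1.01 to 1.22 in the 4 groups. On the TMM-scaled levels used elsewhere the rise with injury is therefore smaller in both treatments. No test was run on the summed shares. In bulk RNA from a sorted population, a change in the cells collected and a change in RNA per cell cannot be told apart.

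Each gene was tested for injury in DMSO, for injury in AMD3100 and for injury over both treatments, which is the mean of both injury effects and uses all 12 libraries. The adjusted p is that of the edgeR quasi-likelihood F test after Benjamini-Hochberg adjustment over all 8453 entries, and a gene passed below 0.05. Over both treatments 18 of the 102 genes passed with edgeR (17.6%), against 16% of all entries. The 18 were 14 higher genes, 13.7% of the set against 7.97% of all entries, and 4 lower genes, 3.92% against 8.01%. In DMSO alone 7 passed (6.86% against 5.19%), with 6 higher (5.88% against 2.86%) and 1 lower (0.98% against 2.33%). In AMD3100 alone 9 passed (8.82% against 5.42%), with 6 higher (5.88% against 3%) and 3 lower (2.94% against 2.41%). The share that passed in either direction was thus near that of all entries, and the higher genes outnumbered the lower ones. Plekhf1 and stxbp5a were put in the set with their values known. Without them, 13 of 100 were higher and 3 lower over both treatments, 5 and 1 in DMSO, and 5 and 2 in AMD3100. The set as a whole was also chosen with earlier results of these data known, so leaving these genes out does not undo that choice.

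The same tilt was seen in the sign of the log2 fold change, whether or not a gene passed. It was above 0 for 72 of 102 genes in DMSO (70.6%, against 48.7% of all entries), 67 in AMD3100 (65.7% against 46.5%) and 71 over both treatments (69.6% against 47%). The median log2 fold change of the set was 0.27 in DMSO, 0.19 in AMD3100 and 0.20 over both, beside −0.02, −0.07 and −0.05 for all tested entries. The levels of injured and uninjured libraries did not overlap for 38 genes in DMSO (37.3%, against 29.6% of all entries), 27 in AMD3100 (26.5% against 24.5%) and 12 in the 6 against 6 comparison (11.8% against 8.84%). The 2 injury effects rest on separate libraries and had the same sign for 75 of 102 genes (73.5%, against 71.3% of all entries). Their Pearson correlation across the 102 genes was 0.68 and Spearman's rho 0.53, beside 0.561 and 0.579 over all entries, and they were 0.609 and 0.504 across the 100 genes without plekhf1 and stxbp5a. These are descriptions, since genes of 1 library share its depth and composition.

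**Figure D2:**
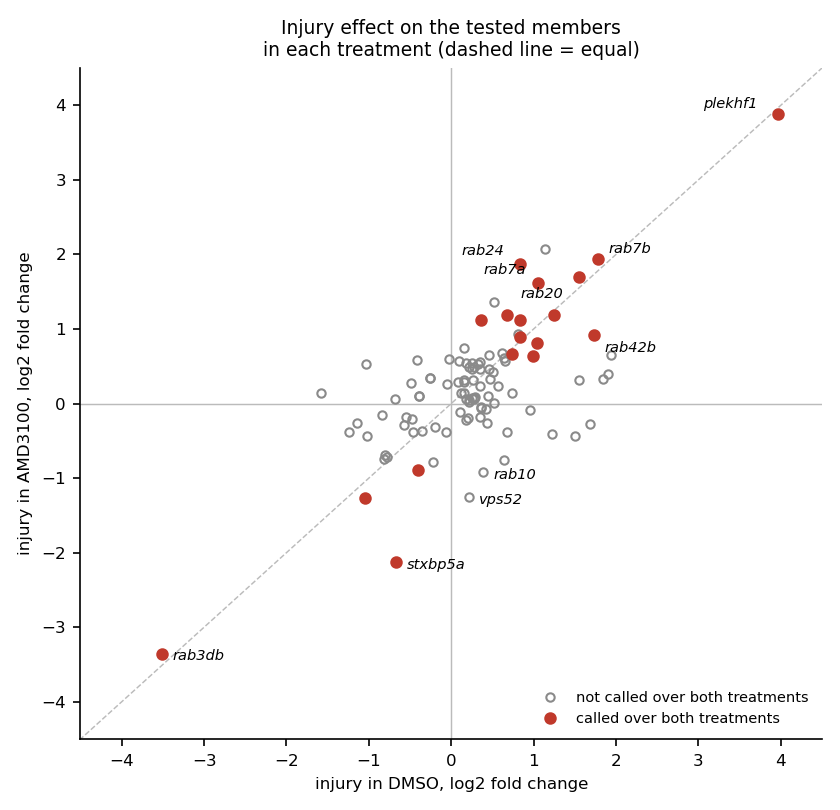
Log2 fold change for injury in DMSO (horizontal) against that in AMD3100 (vertical) for the 102 tested genes, 1 point per gene, filled where the gene passed over both treatments. Most filled points lie at positive values on both axes, rab3db lies at −3.51 and −3.36, and stxbp5a and vps52 lie below the line of equal effects.

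Of the Rabs of late endosomes and lysosomes, 7 of 13 were tested. Over both treatments 4 of these rose and 1 fell, against 7.97% and 8.01% of all entries. Their median log2 fold change was 1.33, beside −0.05 for all entries. The summed neutrophil and macrophage markers given above were lower in injured than in uninjured libraries of the same treatment. The summed thrombocyte markers were higher. The summed skeletal muscle markers overlapped in DMSO and were lower with injury in AMD3100. Whether these markers bear on the Rab values was not tested. Rab7a (ENSDARG00000020497), which directs traffic from late endosomes and phagosomes to lysosomes, was at 76.7, 63.7 and 51.8 CPM in uninjured DMSO and at 122, 143 and 131 CPM in injured DMSO. With AMD3100 it was at 78.5, 48.0 and 45.5 CPM without injury and at 184, 227 and 118 CPM with injury. All 6 injured libraries were above all 6 uninjured ones, and the log2 fold change over both treatments was 1.33 (SE 0.21, edgeR adjusted p = 7.05e-04). It passed in AMD3100 (1.62, SE 0.30, edgeR adjusted p = 0.00712) and not in DMSO (1.05, SE 0.30, edgeR adjusted p = 0.0583), and the difference between these effects did not pass (0.57, SE 0.42, edgeR adjusted p = 1). The call in AMD3100 was lost without uninjured AMD3100 replicate 2 (edgeR adjusted p = 0.0596) and in a fit to only the AMD3100 groups (0.0576).

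The entry named rab7b (ENSDARG00000021287), whose ID the reference gene-name table lists under RAB7A, was at 7.07, 2.2 and 6.54 CPM in uninjured DMSO and 24.2, 18.8 and 14.6 CPM in injured DMSO. It was at 2.70, 4.52 and 5 CPM in uninjured AMD3100 and at 5.61, 25.9 and 12.9 CPM in injured AMD3100. The groups were apart within each treatment, while the shallow injured AMD3100 replicate 1, with 4 counts, fell below the highest uninjured DMSO library. The log2 fold change over both treatments was 1.86 (SE 0.35, edgeR adjusted p = 0.00214). Rab20 (ENSDARG00000005049), found on maturing phagosomes in mammalian macrophages, was at 19.6, 15.4 and 9.81 CPM in uninjured and 42.2, 40.9 and 44.9 CPM in injured DMSO libraries. In AMD3100 it was at 15.8, 16.6 and 16 CPM without and 92.5, 46.0 and 25.9 CPM with injury. Its groups did not overlap, and the log2 fold change was 1.62 (SE 0.28, edgeR adjusted p = 0.00138).

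Rab24, a Rab tied to autophagy, was low, with group means of 1.70, 3.05, 1.14 and 3.76 CPM in the 4 groups, and passed narrowly (log2 fold change 1.35, SE 0.43, edgeR adjusted p = 0.0441). Rab32a, a Rab of lysosome-related organelles, went the other way. It was at 39.2, 36.6 and 50.9 CPM in uninjured and 35.2, 36.7 and 24.4 CPM in injured DMSO libraries, and at 51.2, 46.5 and 60.3 against 21, 33.2 and 28.5 CPM in AMD3100. The DMSO groups overlapped and the AMD3100 groups did not, and the log2 fold change over both treatments was −0.65 (SE 0.19, edgeR adjusted p = 0.0339). Rab9a (0.94, SE 0.69) and rab12 (−0.05, SE 3.25), whose groups all hold libraries at or near 0, did not pass.

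**Figure D3:**
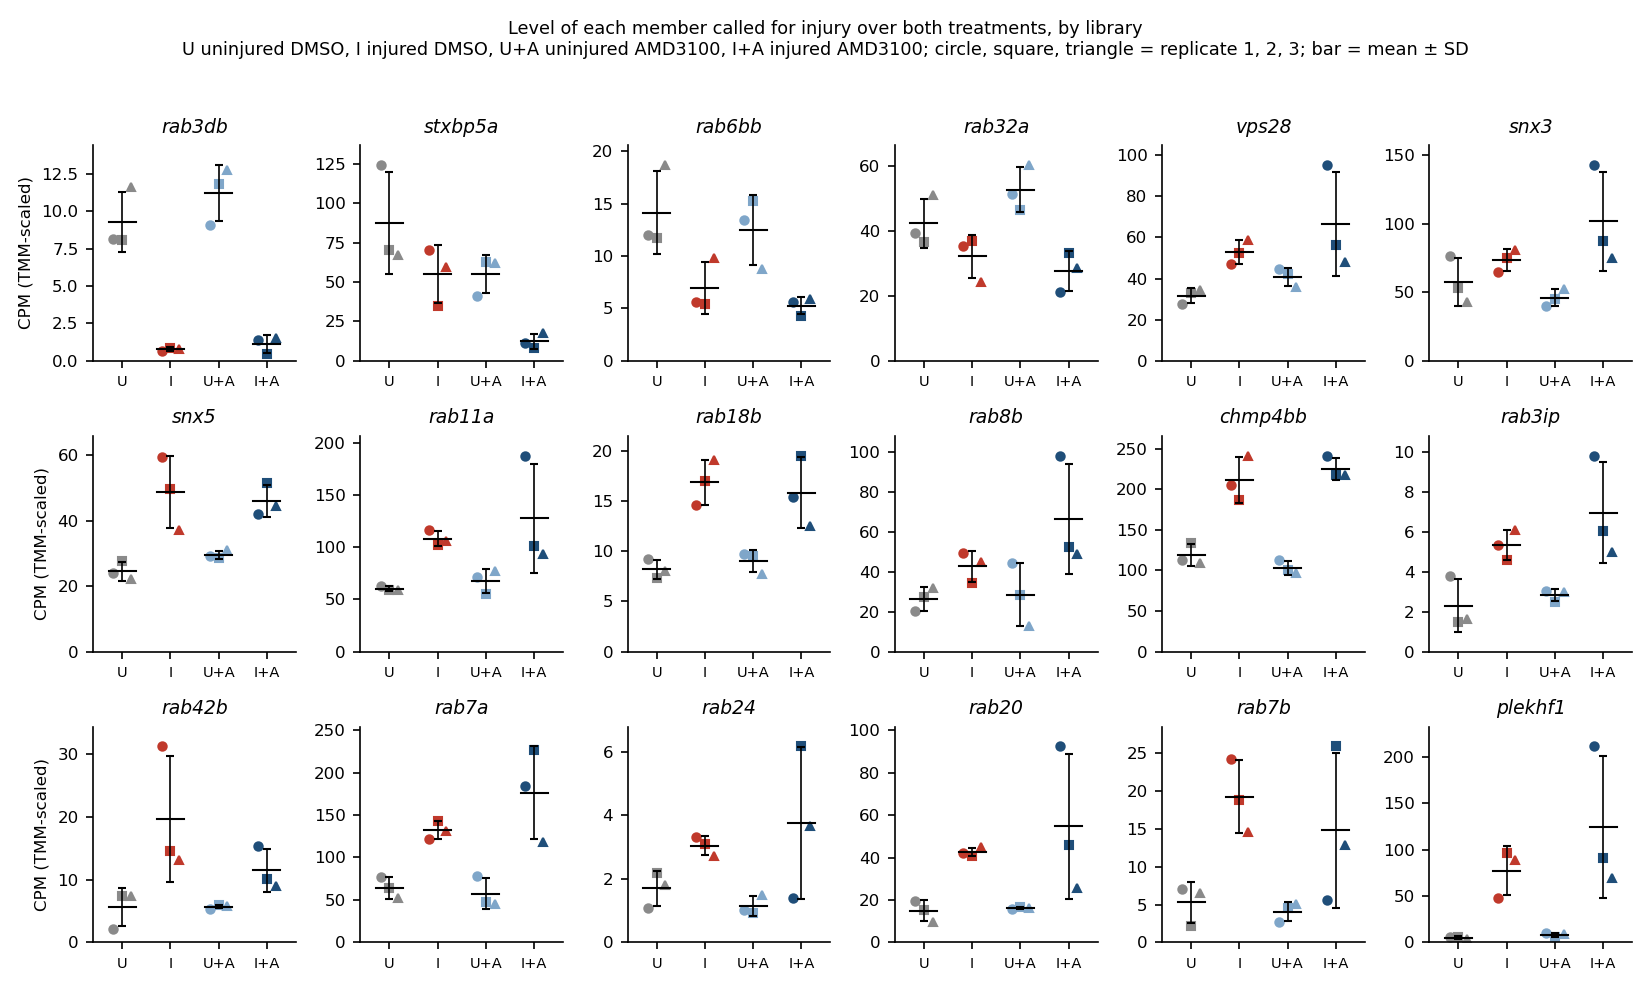
Level of the 18 genes that passed over both treatments, 1 panel per gene, in TMM-scaled CPM, with 1 point per library, a bar at the mean and error bars of 1 SD (n = 3 per group). In the rab3db panel the 6 injured libraries lie at or below 1.56 CPM and the 6 uninjured ones at or above 8.06 CPM, and the plekhf1 panel shows the opposite order.

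Among Rabs of regulated secretion and their partners, only 3 of 10 were tested and their median log2 fold change was −0.81. Rab3db (ENSDARG00000101534), a relative of the mammalian Rab of secretory granules in exocrine cells, had the largest fall of the set. It was at 8.16, 8.06 and 11.6 CPM in uninjured DMSO and at 0.664, 0.884 and 0.801 CPM in injured DMSO, where the libraries held 2, 10 and 5 counts. In AMD3100 it was at 9.10, 11.8 and 12.8 CPM without injury and at 1.4, 0.431 and 1.56 CPM with injury, from 1, 3 and 19 counts. All 6 injured libraries lay below all 6 uninjured ones, with a log2 fold change of −3.43 (SE 0.36, edgeR adjusted p = 2.85e-05), or 10.8-fold lower. The fall passed in DMSO (−3.51, SE 0.50, edgeR adjusted p = 0.00158) and in AMD3100 (−3.36, SE 0.51, edgeR adjusted p = 0.0024). Rab3ip, the Rab8 exchange factor, rose from means of 2.30 and 2.84 CPM in uninjured DMSO and AMD3100 to 5.33 and 6.95 CPM in the injured groups (log2 fold change 1.21, SE 0.35, edgeR adjusted p = 0.0285). Rab44, a large Rab of granule release in mouse mast cells, did not pass (−0.81, SE 0.49, edgeR adjusted p = 0.284), with libraries at 29.4, 65.2 and 46.9 against 26.6, 11.8 and 22.1 CPM in DMSO and at 6.4, 28.7 and 18.5 against 5.61, 2.44 and 29.7 CPM in AMD3100. Its groups were apart in DMSO and overlapped in AMD3100.

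Of 10 tested Rabs of recycling and surface delivery, 2 rose and none fell over both treatments, against 7.97% and 8.01% of all entries. Their median log2 fold change was 0.45. Rab11a (ENSDARG00000041450), the Rab of recycling endosomes, was at 63.1, 59.3 and 58.7 CPM in uninjured DMSO and at 116, 102 and 106 CPM in injured DMSO. The AMD3100 libraries were at 71.1, 55.0 and 77.1 CPM without injury and at 188, 102 and 93.6 CPM with injury. No injured library overlapped an uninjured one (log2 fold change 0.87, SE 0.20, edgeR adjusted p = 0.00848). Rab11ba, another gene of the rab11 name, had a higher mean than rab11a in uninjured groups and a lower one in injured groups. Its level ran from 81.6 to 113 CPM over all 12 libraries, and it did not pass (0.13, SE 0.16). Rab8b, a Rab of vesicle delivery to the plasma membrane, rose by 0.93 (SE 0.29, edgeR adjusted p = 0.0372) from means of 26.3 and 28.5 CPM in uninjured DMSO and AMD3100. Rab14 was at 0.46 (SE 0.17, edgeR adjusted p = 0.076) and rab10 at −0.27 (SE 0.36, edgeR adjusted p = 0.665).

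None of the 8 tested early endosome entries passed over both treatments, against 16% of all entries, and their median was 0.18. The Rab5 entries rab5aa (−0.50, SE 0.39), rab5c (0.22, SE 0.15) and rab5ab (0.64, SE 0.22) had edgeR adjusted p of 0.418, 0.360 and 0.0626. Among 10 tested Rabs of the endoplasmic reticulum and Golgi, 1 rose and 1 fell, against 7.97% and 8.01% of all entries. Rab18b, a Rab of lipid droplets and the endoplasmic reticulum, was at 9.25, 7.32 and 8.00 CPM in uninjured and 14.6, 17 and 19.1 CPM in injured DMSO libraries, and at 9.77, 9.50 and 7.76 against 15.4, 19.5 and 12.5 CPM in AMD3100. No injured library overlapped an uninjured one (log2 fold change 0.93, SE 0.22, edgeR adjusted p = 0.00909). The Golgi Rab rab6bb was at 12, 11.7 and 18.7 against 5.64, 5.39 and 9.77 CPM in DMSO, and at 13.5, 15.2 and 8.76 against 5.61, 4.31 and 5.89 CPM in AMD3100. It fell by 1.16 on the log2 scale (SE 0.27, edgeR adjusted p = 0.00911), with groups apart within each treatment. The abundant rab2a (0.18, SE 0.21) and rab1ab (0.18, SE 0.23) did not pass. Rab42b, grouped with no compartment here, rose by 1.33 (SE 0.32, edgeR adjusted p = 0.0118) from means of 5.65 and 5.68 CPM in uninjured DMSO and AMD3100 to 19.6 and 11.5 CPM in the injured groups.

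**Figure D4:**
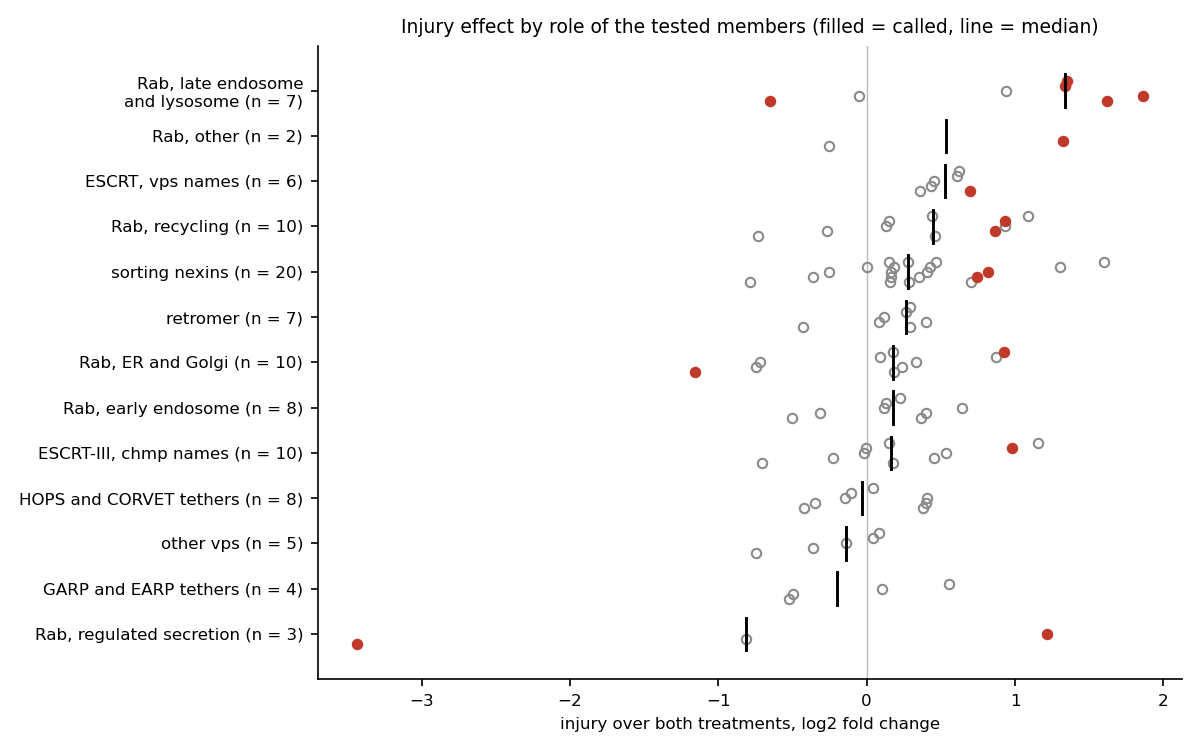
Log2 fold change for injury over both treatments of the tested genes by class, 1 point per gene, filled where it passed, with a vertical line at the class median. Late endosome and lysosome Rabs have the highest median, 1.33, from 7 genes. The class of regulated secretion has the lowest, −0.81, from 3 genes: rab3db, rab44, whose value is the median, and the exchange factor gene rab3ip.

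Of the tested ESCRT genes, 1 of 6 with vps names and 1 of 10 with chmp names passed over both treatments. Both passed as a rise, as did 7.97% of all entries. The log2 fold change was above 0 for all 6 vps genes, from 0.36 to 0.70, and for 6 of the 10 chmp genes, against 47% of all entries. Vps28, a subunit of ESCRT-I, was at 27.7, 33 and 34.3 against 47.1, 52.2 and 58.8 CPM in DMSO, and at 44.5, 42.2 and 36 against 95.3, 56.2 and 48.1 CPM in AMD3100. No injured library was as low as any uninjured one (0.70, SE 0.20, edgeR adjusted p = 0.0278). Vps37c (0.63, SE 0.21), vps25 (0.61, SE 0.21) and vps4b (0.45, SE 0.21) had edgeR adjusted p of 0.060, 0.0559 and 0.163. The median of the 10 chmp genes was 0.16. Chmp4bb (ENSDARG00000007323), the main copy of the filament-forming ESCRT-III subunit, was at 113, 134 and 109 CPM in uninjured and 206, 186 and 242 CPM in injured DMSO libraries. In AMD3100 it was at 113, 100 and 97.1 CPM without and 241, 217 and 217 CPM with injury. The groups were apart, and the log2 fold change was 0.98 (SE 0.16, edgeR adjusted p = 8.02e-04), or 1.97-fold. It passed in DMSO (0.83, SE 0.22, edgeR adjusted p = 0.0445) and in AMD3100 (1.12, SE 0.23, edgeR adjusted p = 0.0103). The call in DMSO was lost when any 1 library other than injured AMD3100 replicate 1 was left out (up to 0.205). It was also lost with RLE (0.0608) or upper-quartile factors (0.066) and without a filter (0.143). The call in AMD3100 was lost without uninjured AMD3100 replicate 2 (0.067) or 3 (0.0598) and in a fit to only the AMD3100 groups (0.074).

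None of the 7 tested retromer and retriever genes passed over both treatments, against 16% of all entries, and their median was 0.26. The cargo-binding retromer subunit vps35 went from 70.2 ± 8.20 to 104 ± 15.4 CPM in DMSO and from 78.1 ± 12.7 to 90.7 ± 27.2 CPM in AMD3100 (SD, n = 3), a log2 fold change of 0.40 (SE 0.19) over both that did not pass, while vps29 was at 0.12 (SE 0.18). Of 20 tested sorting nexins 2 rose and none fell, against 7.97% and 8.01% of all entries, and their median was 0.28. Snx5 (ENSDARG00000020442), a membrane-bending partner in endosome-to-Golgi retrieval, was at 23.9, 27.8 and 22.2 CPM in uninjured and 59.4, 49.9 and 37.2 CPM in injured DMSO libraries. The AMD3100 libraries were at 29.3, 28.5 and 31 CPM without and 42.1, 51.5 and 44.4 CPM with injury. Injured libraries were all higher than uninjured ones (0.82, SE 0.18, edgeR adjusted p = 0.007). Snx3, which binds phosphatidylinositol 3-phosphate and guides retromer to cargo, rose by 0.74 (SE 0.21, edgeR adjusted p = 0.0266). Its libraries overlapped in DMSO (76.7, 52.7 and 42.9 against 65.1, 75 and 80.9 CPM) and not in AMD3100 (40.1, 45.4 and 52.5 against 143, 87.1 and 75.1 CPM). Its close relative snx12 did not pass (0.35, SE 0.21, edgeR adjusted p = 0.273).

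No tether gene of the set passed over both treatments, against 16% of all entries. A joint entry of zgc:136864 and the GARP gene vps54, which is outside the set and whose counts cannot be assigned to either gene, passed as a fall (−1.13, edgeR adjusted p = 0.0281). The 8 genes put in the HOPS and CORVET class were all tested, with values from −0.42 to 0.41 and a median of −0.03. The class goes by the number in the symbol alone, so it also takes in vps33b beside vps33a. Of these, vps41 was at 0.41 (SE 0.24) and vps39 at −0.14 (SE 0.22), the sign of vps39 turning without uninjured DMSO replicate 2 (0.07). Of 4 tested GARP and EARP genes, vps52 passed for injury in AMD3100, as a fall, as did 2.41% of all entries in that contrast. It was at 30.3, 41.1 and 47.8 CPM in uninjured AMD3100 and at 14, 16.7 and 18.1 CPM in injured AMD3100, with no overlap (−1.26, SE 0.30, edgeR adjusted p = 0.026). In DMSO it was at 22.3, 36.6 and 30.0 against 43.8, 31.7 and 27.4 CPM (0.21, SE 0.29, edgeR adjusted p = 0.753). The difference between both injury effects was −1.47 (SE 0.42) and did not pass (edgeR adjusted p = 1). The call in AMD3100 was lost without injured DMSO replicate 2 (0.0533), uninjured AMD3100 replicate 2 (0.0945) or 3 (0.133), or injured AMD3100 replicate 2 (0.0878). It was also lost in a fit to only the AMD3100 groups (0.0782). Vps53, of the same complex, was at 0.10 (SE 0.32), with the sign turning without uninjured DMSO replicate 2 (−0.04). Other vps genes were at −0.36 (SE 0.19, vps13a) and 0.05 (SE 0.32, vps13c), neither passing, and the sign of vps13c changed in several alternatives.

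Plekhf1 and stxbp5a, the genes added by name, passed in opposite directions over both treatments. Plekhf1 (ENSDARG00000102435) encodes an endosomal protein that binds phosphatidylinositol 3-phosphate. It was at 5.98, 5.86 and 3.82 CPM in uninjured and 47.8, 96.4 and 88.6 CPM in injured DMSO libraries, and at 10.4, 5.99 and 8.76 against 212, 91.6 and 69.3 CPM in AMD3100. The log2 fold change over both treatments was 3.92 (SE 0.33, edgeR adjusted p = 8.63e-06), or 15.2-fold. Stxbp5a (ENSDARG00000002656) encodes a tomosyn, which holds back SNARE-driven fusion of vesicles with the plasma membrane. It was at 125, 70.3 and 67.4 CPM in uninjured DMSO and at 70.7, 35 and 59.4 CPM in injured DMSO, with overlap. In AMD3100 it was at 41.5, 62.5 and 62 CPM without and at 11.2, 8.05 and 17.8 CPM with injury, with no overlap. The log2 fold change was −0.67 (SE 0.36, edgeR adjusted p = 0.324) in DMSO and −2.13 (SE 0.39, edgeR adjusted p = 0.00617) in AMD3100, a difference of −1.46 (SE 0.52, edgeR adjusted p = 1) that did not pass. Over both treatments it was −1.40 (SE 0.27, edgeR adjusted p = 0.00245). These values describe genes chosen with their results known and support nothing about the rest of the set.

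Of the 18 genes that passed over both treatments, 12 passed in every alternative in which they were tested and without any 1 library: rab3db, which the filter of 10 CPM in 3 libraries removed, and stxbp5a, rab6bb, snx5, rab11a, rab18b, chmp4bb, rab42b, rab7a, rab20, rab7b and plekhf1. The other 6 did not. Rab24 passed without injured AMD3100 replicate 1 and missed without any other library (edgeR adjusted p up to 0.160). Rab32a passed without uninjured DMSO replicate 2 or injured AMD3100 replicate 1 or 2, and missed without any of the other libraries (up to 0.119). Rab8b passed without uninjured DMSO replicate 3, uninjured AMD3100 replicate 1 or injured AMD3100 replicate 2 or 3, and missed otherwise (up to 0.0799). Rab3ip missed without replicate 2 or 3 of uninjured DMSO, injured DMSO replicate 3, uninjured AMD3100 replicate 2 or 3, or injured AMD3100 replicate 2 (up to 0.0714). Without a filter on low counts, rab24, rab32a and rab3ip missed as well. Snx3 missed without replicate 2 or 3 of either DMSO group or uninjured AMD3100 replicate 2 (up to 0.0625), and vps28 without replicate 1 of uninjured DMSO, or replicate 2 or 3 of injured DMSO or uninjured AMD3100 (up to 0.0652). Counts within 1 treatment leaned on single libraries more. The 7 in DMSO were rab3db, plekhf1, chmp4bb, snx5, rab42b, rab7b and rab20. Of 22 alternatives, the call was lost in 15 for chmp4bb, 12 for snx5, 11 for rab42b, 13 for rab7b and 8 for rab20. The 9 in AMD3100 were rab3db, plekhf1, stxbp5a, rab7a, vps52, chmp4bb, snx3, rab7b and rab20. There it was lost in 2 for rab7a, 5 for vps52, 3 for chmp4bb, 10 for snx3, 6 for rab7b and 4 for rab20. The 7 in DMSO became 2 or 3 when any 1 library outside injured AMD3100 was left out (1.9% to 2.88%, against 1.87% to 4.14% of all entries), with rab3db and plekhf1 kept throughout. The 9 in AMD3100 became 3 without uninjured AMD3100 replicate 2 (2.94% against 1.37%) and 4 without replicate 3 (3.85% against 2.12%), with rab3db, stxbp5a and plekhf1 kept throughout. Without the shallow injured AMD3100 replicate 1 the counts were 10 in DMSO (9.52%, against 7.15% of all entries), 11 in AMD3100 (10.5% against 5.01%) and 21 over both treatments (20% against 18%).

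Genes that act with these proteins were followed in 7 lists chosen with earlier results of these data known. The WASH and retriever list also holds vps35l, a gene of the set. Over both treatments the Rab regulators had 2 higher and 2 lower of 35 tested, Rab effectors 1 and 2 of 13, other ESCRT genes 3 and 0 of 19, phosphoinositide genes 1 and 0 of 20, WASH and retriever genes 0 and 0 of 13, SNARE and fusion genes 1 and 2 of 29, and coats and adaptors 6 and 1 of 34. The background was 7.97% higher and 8.01% lower, and the list medians ran from −0.11 for Rab effectors to 0.34 for SNARE genes. Ehd1a, which remodels recycling endosome membranes, was at 44.1, 79.1 and 25.3 against 167, 189 and 204 CPM in DMSO and at 18.9, 29.5 and 51.0 against 105, 122 and 122 CPM in AMD3100. It had no overlap and a log2 fold change of 1.88 (SE 0.28, edgeR adjusted p = 3.92e-04). Tbc1d5, a GTPase-activating protein for Rab7 bound to retromer, rose by 0.94 (SE 0.20, edgeR adjusted p = 0.00525) and rabgap1 by 1.23 (SE 0.36, edgeR adjusted p = 0.0292), while tbc1d14 (−0.59) and rabgap1l (−0.64) fell, with edgeR adjusted p of 0.0433 and 0.0482. The Rab8-binding ehbp1l1a (−1.12, SE 0.25, edgeR adjusted p = 0.0067) and the Rab11-binding rab11fip4b (−0.89, SE 0.27, edgeR adjusted p = 0.0363) fell.

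The ESCRT-associated pdcd6 (0.80), ist1 (0.62) and tollip (0.62) rose with edgeR adjusted p of 0.0281, 0.0314 and 0.0347, and the phosphatidylinositol 4-kinase pi4k2a rose by 1.09 (SE 0.31, edgeR adjusted p = 0.0289). Among coats, the clathrin heavy chain cltcb (0.80, SE 0.16), the adaptor ap2m1a (0.98, SE 0.23) and epn2 (0.92, SE 0.19) rose, with edgeR adjusted p of 0.00412, 0.0101 and 0.00469. The Golgi adaptor ap1g2 fell by 1.43 on the log2 scale (SE 0.25, edgeR adjusted p = 0.00126). Of the SNARE genes, stx6 rose (0.96, SE 0.28, edgeR adjusted p = 0.0292) and vamp8 fell (−0.70, SE 0.23, edgeR adjusted p = 0.0497). Vamp2, a SNARE of regulated exocytosis, fell as well (−3.59, SE 0.89, edgeR adjusted p = 0.0134), from 17.4, 5.13 and 0.363 CPM in uninjured DMSO and 4.04, 7.38 and 13.5 CPM in uninjured AMD3100. Its injured libraries were at 3.65, 0.707 and 0 CPM in DMSO and 0, 0.144 and 0.491 CPM in AMD3100, and the DMSO groups overlapped.

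In the main edgeR fit, no gene of the set passed for AMD3100 itself. In injured larvae 0 of 102 genes passed, against 0% of all entries, and 7 had an unadjusted p under 0.05 (6.86% against 5.51%). In uninjured larvae 0 passed, against 0.0118% of all entries, and 4 had an unadjusted p under 0.05 (3.92% against 5.12%). For the difference between the injury effects 0 passed, against 0% of all entries, and 3 had an unadjusted p under 0.05 (2.94% against 3.13%). DESeq2 called 1 of the 102 genes in injured larvae, stxbp5a, which was added with its values known and was the 1 call among all entries (0.0118%). It called none of the set in uninjured larvae, against 0.225% of all entries, and none for the difference, against 0%. Without a filter on low counts, edgeR called 3 of 143 genes in injured larvae (2.1%, against 0.518% of all entries). These were stxbp5a, rab10 (−1.93, edgeR adjusted p = 1.32e-05) and rab5aa (−1.45, edgeR adjusted p = 0.00562). The log2 fold changes of stxbp5a and rab10 were nearly the same in the main fit, given below, where neither passed. The median log2 fold change of the set was −0.06 in injured and −0.02 in uninjured larvae, beside 0.00 and 0.03 for all entries. The AMD3100 contrast in injured larvae shares libraries with both injury contrasts, so values of 1 gene in these contrasts are not independent.

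In injured larvae the smallest p of the set, and of all 8453 entries, was that of stxbp5a, which was 55.1 ± 18.2 CPM in DMSO and 12.3 ± 4.95 CPM in AMD3100 (SD, n = 3). Its log2 fold change was −2.11 (SE 0.39, edgeR adjusted p = 0.615), and DESeq2 gave −2.10 with an adjusted p of 0.00317. Over all alternatives its adjusted p ran from 1.4e-05 without a filter to 1. Rab10 was at 501, 508 and 367 CPM in injured DMSO and at 64.5, 51.9 and 236 CPM in injured AMD3100, without overlap (−1.94, SE 0.53, edgeR adjusted p = 0.901). In uninjured AMD3100 it was at 84.6, 294 and 299 CPM, against 400, 315 and 338 CPM in uninjured DMSO. Without injured AMD3100 replicate 3, the highest of its group for rab10, stxbp5a (−2.55, edgeR adjusted p = 0.0157) and rab10 (−2.96, edgeR adjusted p = 0.0111) passed. Vps52 had a log2 fold change of −1.04 (SE 0.30, edgeR adjusted p = 0.901).

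In uninjured larvae the smallest p were those of the Golgi and autophagy Rab rab33ba (−2.17, SE 0.65, edgeR adjusted p = 0.784), the cargo adaptor snx27b (−1.36, SE 0.53, edgeR adjusted p = 0.959) and rab12 (4.43, SE 1.79, edgeR adjusted p = 0.959). Uninjured DMSO replicate 1 set the mean of rab33ba, with 21.2 CPM against 5.13 and 6.72 CPM in the other libraries, while uninjured AMD3100 libraries were at 1.69, 1.29 and 4.5 CPM. Rab12 was at 0, 0 and 0.182 CPM in uninjured DMSO and at 0, 3.78 and 4.25 CPM in uninjured AMD3100, so its fold change rests on 1 count in the DMSO group. For the difference between injury effects the smallest p were those of vps52 and stxbp5a, given above, and of snx14 (−1.63, SE 0.62, edgeR adjusted p = 1).

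**Figure D5:**
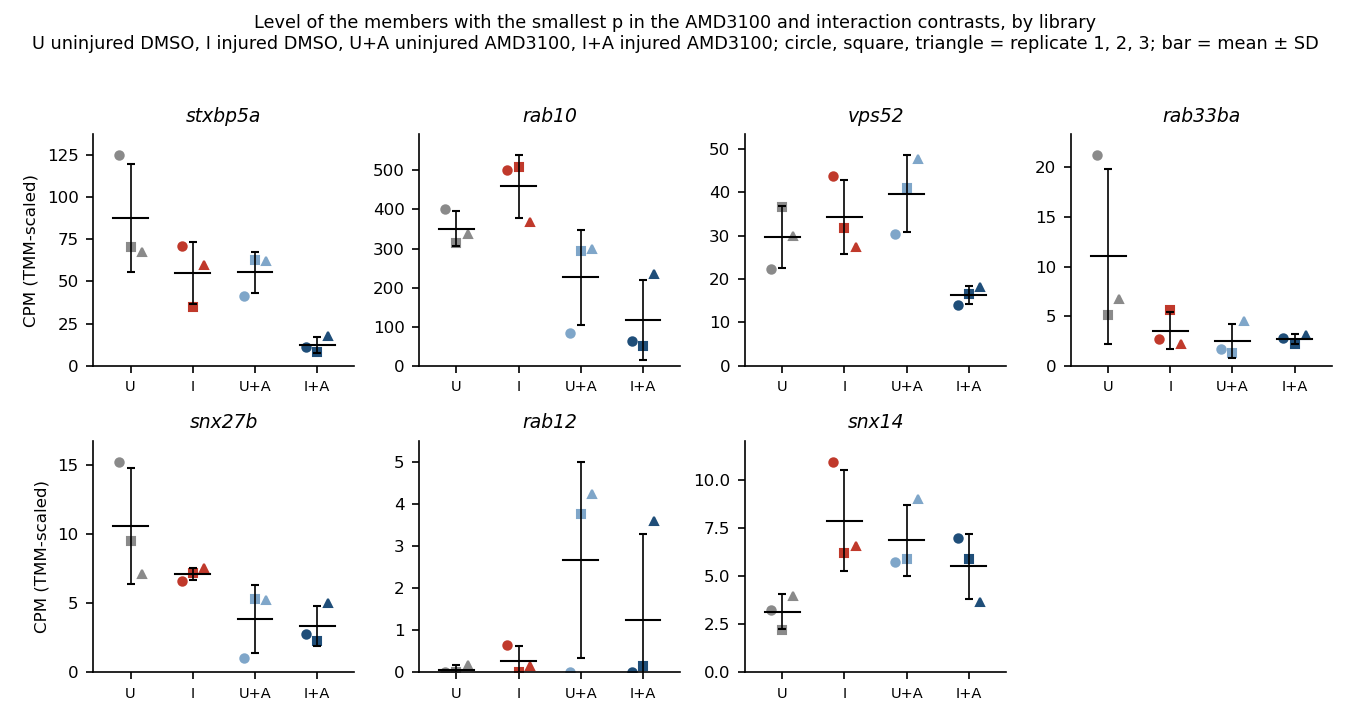
Level of the 7 genes with the smallest p in the AMD3100 contrasts and in the difference between injury effects, in TMM-scaled CPM, with 1 point per library, a bar at the mean and error bars of 1 SD (n = 3 per group). Injured AMD3100 libraries lie below injured DMSO libraries for stxbp5a, rab10 and vps52, and none of these differences passed the main edgeR test.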

How the data were processed

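RNA was measured in 12 libraries of sorted neutrophils by a modified CEL-seq protocol with poly(A) priming, so reads mark transcript 3′ ends. The authors deposited whole-number counts per entry, without normalization, as judged from the values. BWA, GRCz11 and DESeq2 1.38 are named without a role, per the submitters' processing notes. Whether molecular identifiers were collapsed: not given in the sources used here.

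Counts of 31263 entries, without 88 ERCC spike-ins, were analysed with edgeR 4.0.16 in R 4.3.3. Entries were kept by filterByExpr (minimum count 10, minimum total 15), which left 8453. TMM factors and a quasi-likelihood model with 1 coefficient per group were fitted to all libraries, and p-values were adjusted by Benjamini-Hochberg over all entries at 0.05. The common biological coefficient of variation was 0.38. Standard errors were derived from the F statistic. P-values measure the spread between these libraries only, and 3 replicates a group limit what can be detected.

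The 5877 entries that join overlapping genes were left out of the set. Of these, 85 hold a gene of the same name families and 0.335% to 2.02% of the families' counts. Of these, 1 was tested, that of zgc:136864 and vps54. Positions and sequences are not reported. All 156 IDs were found in the reference gene-name table, 116 under the same symbol apart from case.

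Named are the genes that passed in any contrast, the 2 highest of each class, plekhf1 and stxbp5a, and the 3 smallest p where none passed. Genes of the 7 lists are named where they passed for injury, at most 4 a list. Rab9a, rab11ba, rab27a, rab5ab, vps37c and the shares within name families were added with their values seen. The set and the lists were chosen with earlier results of these data known.

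Alternatives were RLE and upper-quartile factors, DESeq2 1.42.0, limma 3.58.1 voom with sample quality weights, no filter, 10 CPM in 3 libraries, a fit to only those groups compared, the replicate number as a block, no mitochondrial and hemoglobin genes, a threshold of 0.1, and each library left out in turn. The method was tested on simulated counts with 100 genes changed at each size. A log2 change of 1 was found for 8 (injury in DMSO), 4 (injury in AMD3100) and 21 genes (over both treatments). It was found for 7 genes in each AMD3100 contrast and 0 for the difference. A log2 change of 2 was found for 46, 47 and 77 genes for injury, in the same order. For AMD3100 it was found for 44 (injured) and 53 (uninjured), and for the difference for 8. The simulated injury contrasts had 58, 56 and 105 calls, of which 6.9%, 8.93% and 6.67% were false. The data had 439, 458 and 1351 calls, so the adjustment was stricter in the simulation and its rates for injury can differ from those in the data. A gene that did not pass may thus still have changed. Replicates differed beyond sampling noise in every group.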

Additional observations from a re-analysis of the deposited data

How the results depend on the processing

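For injury in DMSO the 7 genes became 4 with RLE factors (5.13% of all entries passed), 4 with upper-quartile factors (5.24%), 12 with voom and quality weights (11.3%), 3 with the replicate block (4.18%), and 2 to 10 when 1 library was left out (1.87% to 7.15%). For injury in AMD3100 the 9 became 3 in a fit to only those groups compared (2.16%) and 3 to 12 with 1 library left out (1.37% to 6.58%). Over both treatments the 18 stayed between 13 and 23 (7.78% to 23.8%). With the replicate block they were 17 (14% of all entries passed), with rab24 (edgeR adjusted p = 0.078) and rab32a (0.0563) missing. The 17 thus include a gene outside the 18. For AMD3100 in injured larvae the 0 became 1 with DESeq2 (0.0118%), 3 without a filter (0.518%) and 0 to 2 with 1 library left out (0% to 0.825%). For AMD3100 in uninjured larvae (0% to 0.716%) and for the difference between injury effects (0% to 0.336%) the count was 0 in every alternative run. The shares of counts became 0.632%, 0.855%, 0.495% and 0.674% without mitochondrial entries. With 1 library left out, the sign turned for vps53 (−0.0354 to 0.243), vps39 (−0.242 to 0.0746), rab1ab (−0.076 to 0.33) and vps13c (−0.125 to 0.191), and for vps13c also with quality weights (−0.036). None of these genes had passed, and the cause was not tested. Of 34 named calls, 17 were kept in every alternative run for them and none turned sign. The 3 calls of rab3db among them had no value under the filter of 10 CPM in 3 libraries, which removed it. RLE and upper-quartile factors moved the median of all entries by −0.06 at most in the injury contrasts. Same-numbered replicates correlated at −0.111 to 0.14, with 1 of 18 pairs over 0.1, so the numbers were not taken to pair the libraries. Injured AMD3100 replicate 1, where 1 count is 1.4 CPM, limits the low genes of its group. That fit to fewer groups was not run for both treatments or the difference.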
